A study of Mus musculus with 10 samples.

Results

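The genes described here encode the microtubule and neurofilament skeleton of neurons and the motors that run on it: tubulins, microtubule-associated proteins, end-binding proteins, neurofilament subunits, stathmins, kinesins, dynein and dynactin. They were chosen by a rule on gene symbols in the array's probe table, which came to 59 probes for 57 genes of 10080 probes on the array. Of those 10080 probes, 9066 carry 1 gene symbol, 12 carry several and 1002 carry none; the named probes stand for 8726 genes. Of the 59 probes, 37, each for a different gene, gave a ratio in all 3 biological replicates and entered the test.

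Microtubules are hollow polymers of alpha- and beta-tubulin that stiffen axons and dendrites and serve as their transport tracks. Kinesins mostly carry cargo towards the fast-growing plus end, and cytoplasmic dynein, which works with dynactin, carries it back towards the cell body. Neurofilaments set the calibre of thick axons, stathmins bind free tubulin, and microtubule-associated proteins hold the polymer together, so the levels of these transcripts are commonly read as features of neurons.

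The RNA came from the midbrain of male DBA/1 mice aged 8 weeks, a strain prone to collagen-induced arthritis. Animals of the collagen group received type II collagen (100 ul) together with complete Freund's adjuvant (100 ul), given intradermally. The control group received 200 ul of that adjuvant without collagen, and lipopolysaccharide followed in both groups at day 24. Adjuvant and endotoxin are thus common to both groups, and the data hold no untreated animals. Each of 10 arrays compared the 2 groups directly on 1 slide. They form 5 dye-swap pairs over 3 replicates, with 2 pairs each in replicates 1 and 2 and 1 pair in replicate 3. The sources used here do not give the number of animals behind each RNA, so the p-values measure the spread between these 3 RNA pairs.

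Every value below is a log2 ratio of collagen over control, in which 0 is no difference, -1 is 2-fold lower in the collagen group and 1 is 2-fold higher. The direction takes channel A as Cy3, which is likely rather than stated; with A as Cy5 every sign here would turn. An array gave ratios for 4496 to 8425 of all probes and for 27 to 56 of the 59 probes of these genes. The number of arrays limits the precision, and 18 of the 59 probes had a ratio on all 10.

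Promoters are shown for Map1b and Ina, the gene with the most arrays below 0 and a neurofilament gene with 1 array far from the rest, both described below. Each window of 300 bases lies mostly before the annotated start and is taken from RefSeq on GRCm38.p6, Map1b at chr13:99516553-99516852 on the minus strand and Ina at chr19:47014431-47014730 on the plus strand. Capitals mark the GC box GGGCGG read on either strand and the TATA box TATAAA.
Map1b: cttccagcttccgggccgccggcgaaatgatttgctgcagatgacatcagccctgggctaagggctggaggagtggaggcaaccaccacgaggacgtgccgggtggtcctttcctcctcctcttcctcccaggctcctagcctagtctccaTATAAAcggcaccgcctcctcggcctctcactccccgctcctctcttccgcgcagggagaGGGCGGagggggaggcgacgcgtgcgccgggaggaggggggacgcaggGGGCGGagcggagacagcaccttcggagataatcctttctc
Ina: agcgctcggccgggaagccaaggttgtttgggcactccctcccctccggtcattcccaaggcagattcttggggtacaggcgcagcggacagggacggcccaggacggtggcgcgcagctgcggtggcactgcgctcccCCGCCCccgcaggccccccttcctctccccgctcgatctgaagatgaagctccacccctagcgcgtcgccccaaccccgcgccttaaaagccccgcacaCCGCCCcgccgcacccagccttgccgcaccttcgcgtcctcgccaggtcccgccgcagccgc
Both windows hold 2 GC boxes, and that of Map1b also holds 1 TATA box. Of the 57 genes, 42 matched the promoter table, with 51 windows between them. A GC box stood in 30 of these 51 windows (58.8%), against 35.7% of all 32851 windows in the table. CCAAT stood in 18 (35.3%, against 37.4% of all) and TATAAA in 6 (11.8%, against 13.6%); each was searched on both strands, and none of the 3 motifs contains another. These are matches of letters and not measured binding.

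None of the 37 tested probes passed the test of collagen against control after adjustment. The RNA is that of whole tissue, in which fewer neurons and less RNA per neuron cannot be told apart. The lowest adjusted p was 0.827 by limma over 4139 probes, of which 0 were called (0%). At an unadjusted p under 0.05, 163 of the 4139 probes passed (3.94%), and 1 of the 37 did, Dync2li1, on the lower side (2.73% of all probes were lower and 1.21% higher). The mean ratio was below 0 for 23 of the 37 (62.2%, against 59.2% of all tested probes) and above 0 for 14 (40.8% of all). In all 3 replicates 11 lay below 0 (20.8% of all) and 2 above (8.92% of all), and the other 24 were of mixed sign. The median of the 37 means was -0.0231, against -0.0250 over all tested probes, so as a group they lay where the array as a whole lay. The count of 11 depends on the normalisation: it was 6 with median centring and 3 with loess within printing blocks, where 821 and 565 of all 4139 probes lay below 0 in every replicate. Of the 11, the mean of Dctn5 turned to 0.09 with median centring, and that of Kif3b to 0.00089 with the background added back.

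The precision differed little from that of other probes. The median SD over the 3 replicates was 0.149 for these genes and 0.145 over all tested probes. The 95% interval of the mean lay within a 2-fold change either way for 36 of the 37 (99.3% of all), all but Dync1h1, and within 1.5-fold for 34 (93.2% of all), all but Dync1h1, Stmn4 and Tubb2b.

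**Figure D1:**
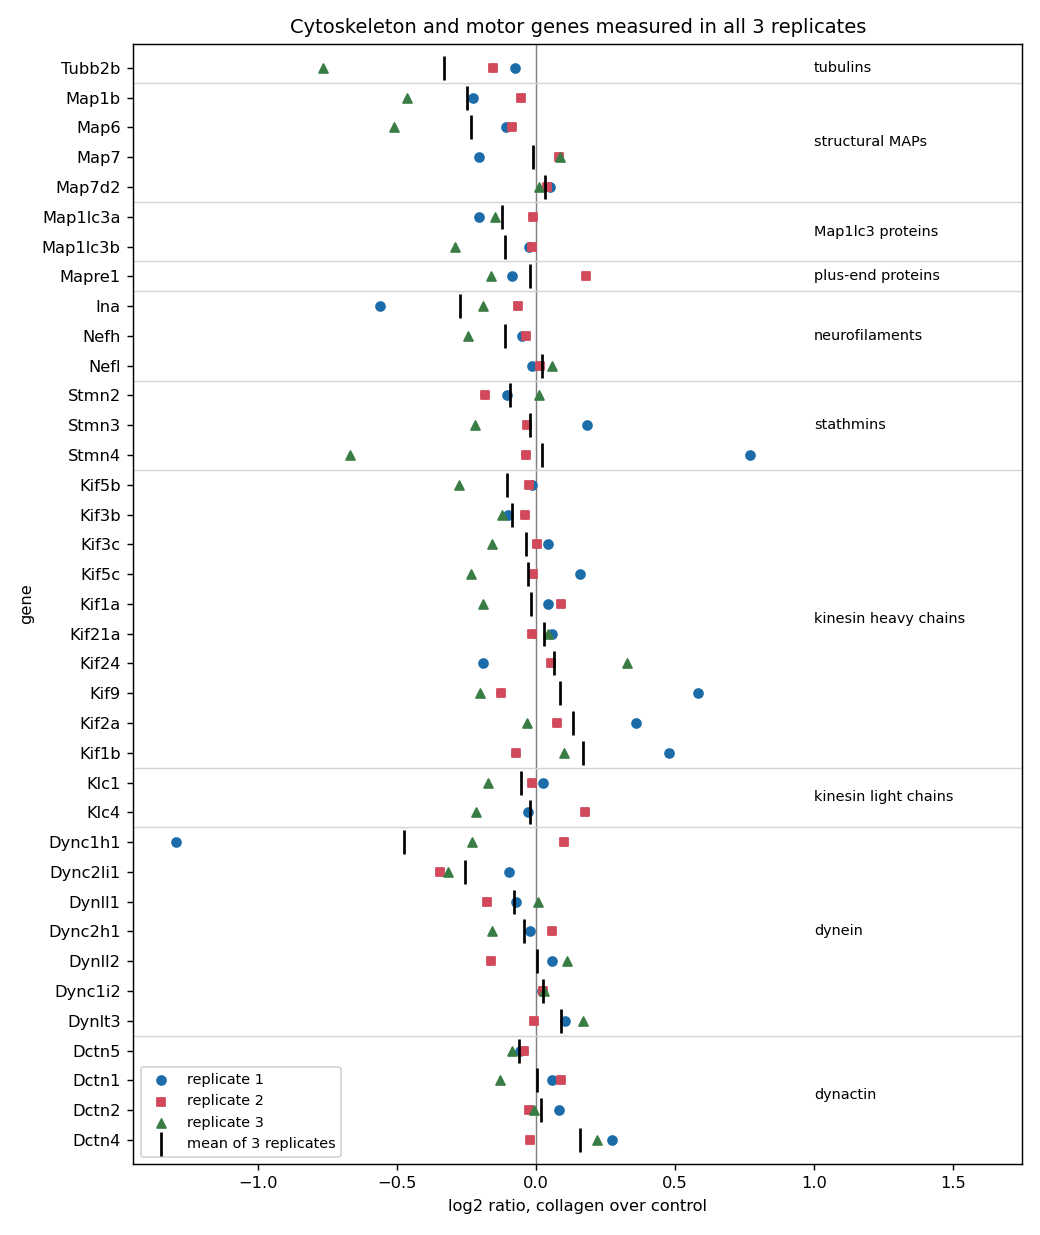
Log2 ratio of collagen over control (horizontal axis) for the 37 genes with a value in all 3 replicates, grouped by role, with 1 point per replicate and a vertical tick at the mean. The means run from -0.48 for Dync1h1 to 0.17 for Kif1b, and the points of 24 genes fall on both sides of 0.

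Among the tubulins, only Tubb2b, a beta-tubulin of neurons, had a value in every replicate. Its ratios were -0.07, -0.15 and -0.77 in replicates 1, 2 and 3, a mean of -0.33 ± 0.38 (SD, n = 3; adjusted p = 0.827, limma). Replicate 3 lay well below the other 2, and within it the array with collagen in Cy3 gave -1.26 and its dye swap -0.28. On that Cy3 array channel A held the collagen RNA. After background correction its Tubb2b intensity was 0.328 to 0.457 of its background, and single scans gave -1.82 to -0.93. Over single arrays Tubb2b was below 0 on 8 of 10, from -1.26 through a median of -0.27 to 0.58. Tuba8, an alpha-tubulin, gave 0.04 and -0.03 in replicates 1 and 2, close to 0. Tubb6 gave -0.06 and -0.22 in replicates 1 and 3, and the arrays behind the latter read 0.07 and -0.51. Tubgcp4, a subunit of the gamma-tubulin ring complex that seeds new microtubules, gave 0.09 and 0.08 in replicates 1 and 2 and was not measured in the third. Tubulin genes are close in sequence, and the probe sequences were not used here, so how far a probe also reads a relative was not tested.

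Of the structural microtubule-associated proteins, Map1b, which acts in growing axons, was the one most often below 0. It gave -0.23, -0.05 and -0.47, a mean of -0.25 ± 0.21 (SD, n = 3; 95% interval -0.50 to 0.00; unadjusted p = 0.0508, adjusted p = 0.827, limma). Its ratio was negative on 9 of 10 arrays, and the exception lay at 0.00. Map6, which makes microtubules stable in the cold, gave -0.11, -0.09 and -0.51, a mean of -0.24 ± 0.24. Replicate 3 was again the lowest, with -1.01 on the array with collagen in Cy3 and -0.01 on its dye swap. For Map1b those arrays gave -0.76 and -0.17. On the Cy3 array the background-corrected intensity of channel A was again under its background, at 0.366 to 0.655 of it for Map6. For Map1b it was 0.542 to 0.708, and single scans gave -1.04 to -0.29. With median centring in place of loess the means were -0.06 for Map1b and -0.0042 for Map6, and with loess within printing blocks -0.12 and -0.19. Map7, which recruits kinesin-1 to microtubules, gave -0.21, 0.08 and 0.09, with no common sign. Its relative Map7d2 gave 0.05, 0.04 and 0.01, a mean of 0.03 ± 0.02, while its 7 arrays ran from -0.21 to 0.31. Map2, the protein that marks dendrites, had only replicates 1 and 2, at -0.04 and 0.10, and Map4, the form most tissues use, had 0.03 and 0.15.

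The Map1lc3 proteins, named after microtubules but best known as the lipid-anchored mark of autophagosomes, were both below 0 in every replicate. Map1lc3a gave -0.21, -0.01 and -0.15 (mean -0.12 ± 0.10, SD, n = 3) and Map1lc3b gave -0.03, -0.02 and -0.29 (mean -0.11 ± 0.16). Replicate 2 lay at or near 0 for both genes. At the plus end, Mapre1, which tracks growing tips and gathers other proteins there, gave -0.09, 0.18 and -0.16 and had no common sign, while Mapre3, its neuronal relative, gave 0.00 and 0.13 in replicates 1 and 2.

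Ina, alpha-internexin, a neuronal filament protein that assembles with the neurofilament triplet, gave -0.56, -0.06 and -0.19, a mean of -0.27 ± 0.26 (SD, n = 3; 95% interval -0.56 to 0.01; unadjusted p = 0.0567, adjusted p = 0.827, limma). One array set that value: the array of replicate 1, pair 1, with collagen in Cy5 gave -2.61, while the median over 10 arrays was -0.04 and 6 were below 0. Without that pair the mean of Ina was -0.04. Nefh, the heavy subunit, gave -0.05, -0.04 and -0.25, below 0 throughout and close to 0 in 2 replicates. Nefl, the light subunit that starts the filament, gave -0.01, 0.02 and 0.06 and had the narrowest spread of the group (0.02 ± 0.04). Nefm, the middle subunit, gave -0.01 and 0.13 in replicates 2 and 3. None of the 3 triplet genes went below Nefh's -0.25 in a measured replicate, and none rose above 0.13.

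Stathmins take up free tubulin and promote the loss of microtubule ends. Stmn2, the neuronal form found in growth cones, gave -0.11, -0.18 and 0.01, a mean of -0.09 ± 0.10 (SD, n = 3). Stmn3 gave 0.18, -0.03 and -0.22, falling on both sides of 0. Stmn4 gave 0.77, -0.04 and -0.67, a mean of 0.02 ± 0.72 with a 95% interval of -0.62 to 0.66, the widest spread of these genes after Dync1h1. Each of the 3 replicates of Stmn4 rests on 1 pair, and in replicate 3 its 2 arrays gave -1.18 and -0.17. Behind the -1.18, the background-corrected intensity of channel A was 0.330 to 0.494 of its background.

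**Figure D2:**
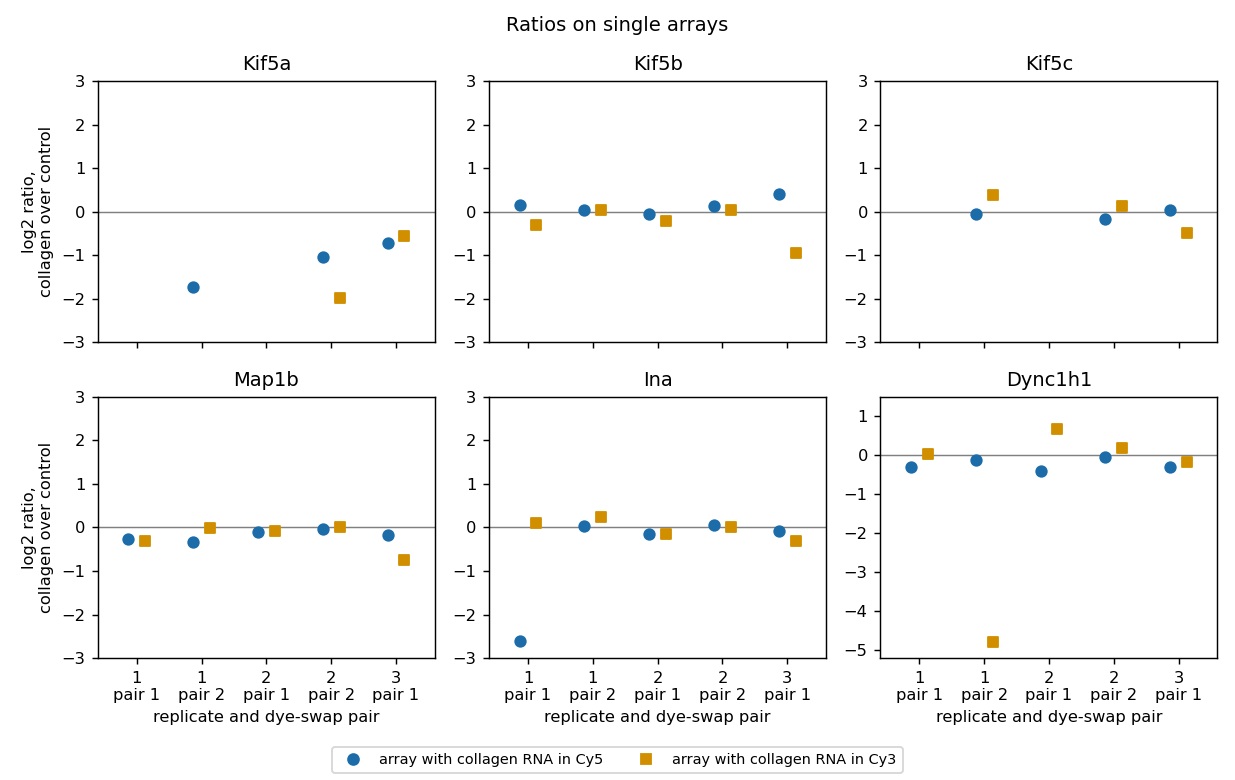
Log2 ratio of collagen over control on each single array for Kif5a, Kif5b, Kif5c, Map1b, Ina and Dync1h1, by replicate and dye-swap pair, with circles for collagen RNA in Cy5 and squares for Cy3; the Dync1h1 panel has a longer axis. Single arrays reach -4.79 for Dync1h1 and -2.61 for Ina, while the 5 Kif5a ratios lie between -1.98 and -0.56.

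Kinesin heavy chains are the largest family here, with 21 genes on 22 probes, of which 10 were tested: 5 had a mean below 0, 5 above, and their median was 0.00. The kinesin-1 heavy chains, which haul mitochondria, vesicles and neurofilaments along axons, are Kif5a, Kif5b and Kif5c. Kif5b, found in most tissues, gave -0.01, -0.03 and -0.28 (mean -0.11 ± 0.15, SD, n = 3). Kif5c, enriched in neurons, gave 0.16, -0.01 and -0.23 and had no common sign. Kif1a and Kif1b, kinesin-3 motors that carry synaptic vesicle precursors, gave 0.04, 0.09 and -0.19 for Kif1a and 0.48, -0.07 and 0.10 for Kif1b. The mean of Kif1b, 0.17 ± 0.28, was the highest of all 37, and 5 of its 10 arrays were below 0. It rests on the array of replicate 1, pair 1, with collagen in Cy3, at 2.09; without that pair the mean of Kif1b was -0.0065. Kif3b and Kif3c belong to kinesin-2, which carries cargo in axons and, as Kif3a with Kif3b, into cilia. Kif3b gave -0.10, -0.04 and -0.12 (mean -0.09 ± 0.04), but its arrays opposed each other by dye. They ran from -0.87 to -0.23 with collagen in Cy5 and from -0.02 to 0.48 with collagen in Cy3, and the mean was -0.40 with median centring. Kif3c gave 0.04, 0.00 and -0.16.

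The remaining tested kinesins were Kif21a, Kif24, Kif2a and Kif9. Kif21a, a kinesin-4 motor that slows microtubule growth, gave 0.06, -0.02 and 0.04. Kif2a, which takes microtubules apart and restrains axon branches, gave 0.36, 0.07 and -0.03. Kif24, a depolymerising kinesin of centrioles, gave -0.19, 0.05 and 0.33, and Kif9, a kinesin of motile cilia and flagella, gave 0.58, -0.13 and -0.20 on its tested probe. None of these 4 was of 1 sign throughout. Kif9's other probe had replicate 1 alone, at -0.16 from pair 2, while the 0.58 of the first probe came from pair 1, so no pair measured both.

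How often kinesins were measured is given by role, in a grouping made after the values were seen and not tested. On the whole array 4139 of 10080 probes had a ratio in all 3 replicates. Of 6 genes best known from cell division (Kif11, Kif20a, Kif22, Kif23, Kif2c and Kif4), 0 had a ratio in all 3 replicates, and their probes gave a ratio on 0 to 7 arrays with a median of 4. Of 10 transport kinesins, 7 were tested, and the median was 6.5 arrays. Kif11 gave 0.03 and -0.01 in replicates 1 and 2, Kif20a and Kif22 had replicate 1 alone at 0.05 and -0.19, and Kif2c gave -1.51 and 0.24. The -1.51 of Kif2c came from a pair whose arrays read -3.03 and 0.02. Kif3a had replicate 2 alone, at 0.23, and Kif12, Kif17, Kif23, Kif2b and Kif4 had no replicate value.

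Kif5a, the kinesin-1 heavy chain specific to neurons, missed the test because it had no value in replicate 1, and it is described because of its values. Its 5 array ratios were -1.72 in replicate 1, -1.05 and -1.98 in replicate 2, and -0.73 and -0.56 in replicate 3. All 5 were below 0, with both dye orientations among them. Of the 7100 probes with 5 or more arrays, 31 had every array below 0 (0.437%), among these genes Kif5a, and 59 had every array above 0 (0.831%), among these genes none. Kif5a has the fewest arrays that this count admits and was picked for its values, so the shares are a description. Replicate 2 came to -1.51 and replicate 3 to -0.64. In a fit of probes with at least 2 replicates its mean was -1.08 (n = 2, 95% interval -1.61 to -0.55, unadjusted p = 0.00286, adjusted p = 0.904, limma), which was not called, and its p ranked 8 of 6723.

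The Kif5a intensities, which are already corrected for background, ranged from above to below the size of the local background itself. Behind the -1.72 the intensities were 5.03 to 6.21 times background in channel A and 2.98 to 4.41 in B, and behind the -1.05 they were 2.74 to 3.28 and 3.28 to 5.24. In replicate 3, the corrected intensity of channel B exceeded its background on both arrays, and that of channel A was 0.510 to 1.01 of it. On the other 5 arrays the spot had signal in channel A and not in B, on 2 of them where A held control RNA and on 3 where it held collagen RNA. This is not particular to Kif5a. Of the 59 probes of these genes, 3 to 28 on an array had no ratio and signal in A alone. On each of the 10 arrays 0 had signal in B alone. The ratio of -1.98 rests on 1 of 3 scans, with intensities 0.192 and 0.357 of background in channels A and B. When spots of corrected intensity under the background in either channel were left out, Kif5a had no replicate value. If channel A held the control RNA on every array, its values would be 0.46 and -0.09, without a common sign. The authors' deposited value table lists it on 4 arrays, all below 0 in that table's own scale. The direction of that table is unstated. Its values correlated at 0.670 to 0.835 over the 10 arrays with the ratios used here, turned to collagen over control. Kif5b and Kif5c, the other kinesin-1 heavy chains, had means of -0.11 and -0.03.

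The kinesin light chains, which bind cargo to kinesin-1, lay close to 0. Klc1 gave 0.02, -0.01 and -0.18 on its tested probe, and its other probe gave -0.07 and 0.02 in replicates 2 and 3. Klc4 gave -0.03, 0.18 and -0.22 and had no common sign.

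Dynein 1 is the motor of transport towards the cell body. Dync1h1, its heavy chain with the motor domain, had the lowest mean of all, -0.48 ± 0.73 (SD, n = 3; 95% interval -1.12 to 0.17; adjusted p = 0.827, limma), from -1.30, 0.10 and -0.23. That mean rests on 1 spot: in replicate 1, pair 2, with collagen in Cy3, the ratio was -4.79. It was read from 1 of 3 scans, with background-corrected intensities 0.170 and 0.212 of background and a saturation factor of 0.0921. Without saturated spots the mean of Dync1h1 was -0.09, and without that pair it was also -0.09. Dync1i2, an intermediate chain that links the motor to dynactin, gave 0.02, 0.02 and 0.03, the smallest spread over replicates of any gene here, while its 7 arrays ran from -0.18 to 0.97. Dync1i1, the neuronal intermediate chain, gave 0.06 and -0.51 in replicates 2 and 3.

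Dynein light chains are small subunits, some shared with other complexes. Dynll1 gave -0.07, -0.18 and 0.01, Dynll2 gave 0.06, -0.16 and 0.11, and Dynlt3 gave 0.11, -0.01 and 0.17, none of 1 sign throughout. Dynlrb2, a roadblock-type light chain, gave -0.10 and -0.28 in replicates 1 and 2.

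Dynein 2 is a separate motor that returns cargo from the tip of the cilium. Its light intermediate chain Dync2li1 gave -0.10, -0.35 and -0.32, a mean of -0.25 ± 0.14 (SD, n = 3; 95% interval -0.47 to -0.04; unadjusted p = 0.0273, adjusted p = 0.827, limma). It was below 0 on 5 of 6 arrays, and in replicates 1 and 2 only the second pair measured it. The mean of Dync2li1 was -0.52 with the first scan alone, -0.08 with the last scan alone and -0.04 in the authors' value table, on that table's own scale. Its heavy chain Dync2h1 gave -0.02, 0.06 and -0.16 and had no common sign.

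Dynactin, which tethers dynein to cargo, had all 4 of its genes tested, with a median of 0.01. Dctn1, the p150Glued arm that grips the microtubule, gave 0.06, 0.09 and -0.13, and Dctn2, the dynamitin subunit, gave 0.08, -0.03 and -0.01. Dctn4 and Dctn5, of the complex's pointed end, gave 0.27, -0.02 and 0.22 for Dctn4 and -0.06, -0.04 and -0.09 for Dctn5. Dctn5 averaged -0.06 ± 0.02, but 0.09 with median centring, and the others fell on both sides of 0.

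**Figure D3:**
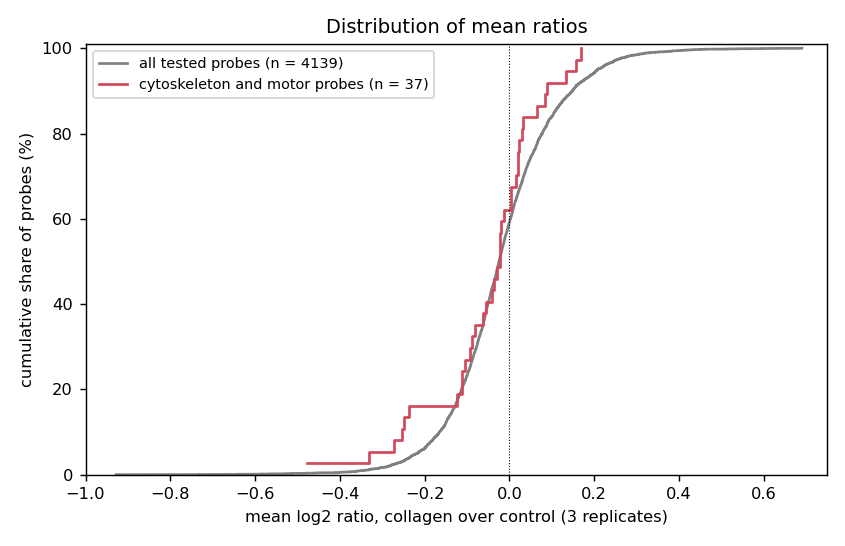
Distribution of the mean log2 ratio of collagen over control over all 4139 tested probes, with the 37 tested probes of these genes marked. The medians are -0.0231 for these genes and -0.0250 for all tested probes.

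Replicate 3 stood lower than the other 2 for these genes. Their median was -0.01 in replicate 1, -0.02 in replicate 2 and -0.16 in replicate 3, against -0.04, -0.02 and -0.02 over all tested probes; the difference was not tested. Below 0 were 20, 24 and 25 of the 37, against 2592, 2395 and 2202 of all 4139. Within replicate 3 the median was -0.26 on the array with collagen in Cy3, with 29 of 37 below 0 (78.4%), and -0.01 on its dye swap, against -0.05 and 0.02 for all tested probes. Without replicate 3 the median over 45 tested probes was 0.01, of the opposite sign.

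**Figure D4:**
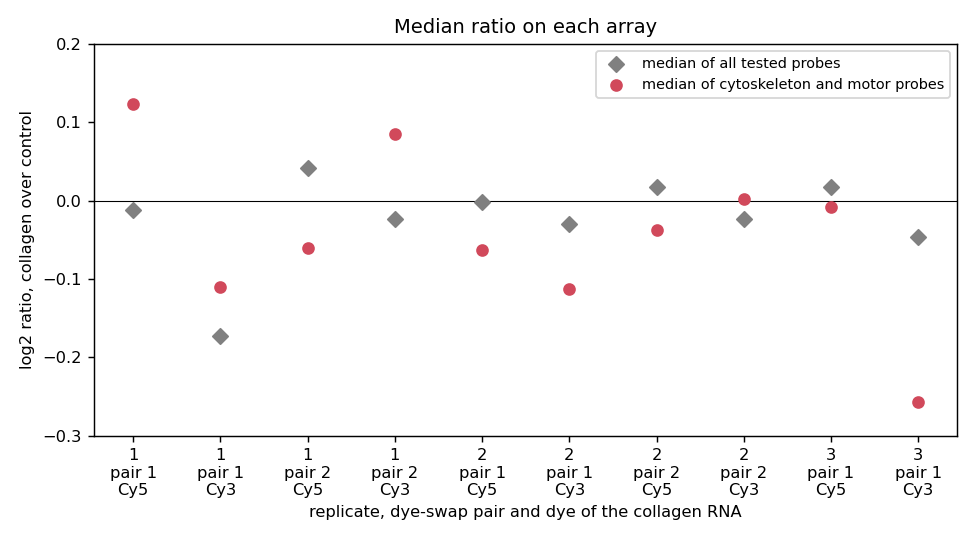
Median log2 ratio of collagen over control on each of the 10 arrays, for the tested probes of these genes and for all tested probes, by replicate and dye orientation. The array of replicate 3 with collagen in Cy3 is the lowest for these genes, at -0.26, while the array of replicate 1, pair 1, with collagen in Cy5 is the highest, at 0.12.

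Repeat hybridisations of the same replicate ordered these genes with little likeness. In replicate 1 the pairs differed by a median of 0.190 over 22 of the genes, with a Pearson r across genes of -0.0173 and the same sign for 9. In replicate 2 the median difference was 0.139 over 24 genes, r was 0.354 and 12 had the same sign. Over all probes r was 0.0297 and 0.0747. Between replicates r across the 37 genes was -0.136 for replicates 1 and 2, 0.0115 for 1 and 3, and 0.187 for 2 and 3. Genes on 1 array share its RNA and its normalisation and are not independent, so these are descriptions.

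As processed here, the dye itself was a source of difference on these arrays, and a dye-swap pair separates it from the treatment. Of the 4139 probes, 55 had a dye effect at an adjusted p under 0.05 (1.33%), and 0 of the 37 did, with values of B over A between -0.50 for Kif24 and 0.29 for Map6. The lowest adjusted p for dye among them was 0.165 (limma). The count of 55 depends on the processing. It was 0 with normexp background correction (offset 50), 0 with median centring and 13 of 3515 probes with the first scan alone. With loess within printing blocks it was 49, and with the background added back 77.

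Genes known to work with this machinery were taken as a list of 65, of which 38 had a probe and 27 probes were tested. Of these 27, 21 had a mean below 0 (59.2% of all tested probes), 8 lay below 0 in every replicate (20.8% of all), 0 were called, and the median was -0.06 (-0.0250 over all). The actin side of the neuronal skeleton gave 10 tested probes, all 10 below 0, 4 of them in every replicate, with a median of -0.10. Of these 10 probes, 3 read the same gene, Actb (beta-actin), with means of -0.23, -0.13 and -0.13. Gap43, the growth cone protein, averaged -0.16 and Marcks, which links actin to the membrane, -0.24. The remaining groups were small and their counts were mixed. Tubulin folding and modification had 3 of 4 below 0 (median -0.05), other microtubule-binding proteins 3 of 7 (0.01), and kinases of tau and neurofilaments 3 of 4 (-0.02), among them Gsk3b at -0.07 and Cdk5 at -0.03. The severing protein Fign stood at -0.13 and the dynein regulator Pafah1b1 at -0.08, each the only one of its group tested. Prph, a neuronal intermediate filament, had a ratio on 0 arrays and Nes on 2, so other intermediate filaments gave no tested probe.

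Markers of cell types were measured on the same arrays. Of 5 tested neuronal markers, 4 had a mean below 0, with a median of -0.09 and replicate medians of -0.04, -0.03 and -0.13. Syn1 averaged -0.29 ± 0.27, Eno2 -0.18, Syp -0.09, Snap25 -0.03 and Syt1 0.01, each lowest in replicate 3. So were Tubb2b, Map1b and Map6, but Ina and Dync1h1 were lowest in replicate 1. Stmn2, Nefl and Dynll1 were highest in replicate 3. Replicate 3 lay farthest from the mean for 18 of the 37 skeleton and motor genes (48.6%, against 50.7% of all tested probes). Replicate 3 rests on 1 pair. Dopamine neuron markers, which define this region, had 2 of 5 below 0 and a median of 0.18. Th, Ddc, Nr4a2, Pitx3 and En1 gave a ratio on 6 to 10 arrays each. A ratio asks only for usable intensities above 0 in both channels, so it does not by itself show expression. Markers of cerebellar granule cells, neighbours of the midbrain in dissection, had 4 of 4 below 0 and a median of -0.26, led by Zic4 at -0.40 and Neurod1 at -0.38. The medians were -0.04 for 3 oligodendrocyte markers, -0.06 for 2 astrocyte markers and -0.09 for 4 microglial markers. Of 2 serotonin markers 1 lay below 0, the endothelial marker Eng was at 0.02, and no red blood cell marker had a probe. Of all 26 tested marker probes 0 were called, and their part in the values of the skeleton genes was not tested.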

How the data were processed

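Midbrain RNA of collagen-injected and control mice was compared on 10 arrays, whose 29 scans the authors quantified as spot intensities. Per the file headers, the deposited intensities are already corrected for background and come with background intensities and flags. The deposited saturation factor, named in the file headers, was treated as a fraction, with 1 for a spot free of saturated pixels. The authors' value table is a deposited score of unstated scale and direction, with column medians of -0.00862 to 0.00332. It served as an alternative and to check the spot order, which it matched at correlations of 0.670 to 0.835 with the ratios turned to collagen over control. The sources used here do not name the quantification software.

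Spots with both intensities above 0 and no X, Y or Z flag were used. Log2 ratios of channel B over A were normalised per scan by loess (limma 3.58.1, R 4.3.3, span 0.3, 4 iterations) and averaged over scans. They were then turned to collagen over control, with channel A taken as Cy3 and B as Cy5, and averaged over both arrays of a pair and over the pairs of a replicate. The limma test of the mean against 0 ran over the 4139 probes with 3 replicate values, with Benjamini-Hochberg adjustment, and was tested on simulated data. Collagen and control RNA of 1 replicate share each array, so the pairing lies in the ratio itself, and arrays that share a replicate number were taken as repeat hybridisations. Alternatives changed background, normalisation, scans, filters, channels and replicates. The genes and lists (of cell type markers and of partner genes) were chosen with earlier results of these data known. All genes with 3 replicate values are named; those with fewer were named after their values were seen.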

Additional observations from a re-analysis of the deposited data

Results flagged for a closer look

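Within each dye orientation, the lowest and highest array of every gene with 4 or 5 arrays were set against the others by Dixon's test. Of 56 sets screened, 6 had an array farther from the others than its critical value, where chance gives about 1 in 20, and none of 4 array-wide measures did. In replicate 1, pair 1, with collagen in Cy5, Dctn1 stood at 1.92 (nearest array 0.14), Dctn4 at 2.26 (nearest 0.36) and Ina at -2.61 (nearest -0.16). The dye swap of that array had no ratio for Dctn1 or Dctn4, so neither value entered a replicate mean. On that dye-swap array Stmn3 stood at 1.27 (nearest -0.06). In replicate 1, pair 2, with collagen in Cy3, Dync1h1 stood at -4.79 (nearest -0.16). Mapre1 stood at 0.34 in replicate 2, pair 1, with collagen in Cy3 (nearest -0.09). Of the 6, 5 lie in replicate 1.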

How the results depend on the processing

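No gene of the skeleton or motors was called under any alternative run, among them single arrays with a replicate block (0 called, consensus correlation 0.0365) and without it (0 called). With the replicate number as a block, 330 of all probes had a dye effect, and 392 had one without the block, against 55 on replicate means. Among the 37 genes 1 dye effect was called with the block and 1 without it, Kif3b in both. When a replicate was left out, between 0 and 1 were called. The 1 was Kif24, without replicate 1, where 235 of all 4382 probes were called. The number of genes lower in all replicates, 11 of 37, became 6 with median centring and 3 with print-tip loess. It was 5 of 32 with the first scan alone (668 of all 3515 probes). With channel A as control on every array it was 3 (783 of all 4139). In the authors' value table it was 4 of 34 (471 of all 3148). When a replicate was left out, only 2 replicates had to be lower. The count was then 18 of 41 without replicate 1 (1386 of all 4382) and 16 of 38 without replicate 2 (1436 of all 4355). Without replicate 3 it was 14 of 45 (2160 of all 6264). Some alternatives were chosen after seeing the data: leaving out spots of corrected intensity under the background, and leaving out single dye-swap pairs. The runs without a pair include those quoted above for Ina, Kif1b and Dync1h1. Leaving out those spots gave 2 of 11 tested genes lower in all replicates (205 of all 811 probes). Leaving out pair 1 of replicate 2 gave 5 of 37 (732 of all 3963). With channel A as control on every array the ratios stay unturned, so this run is the same fit as the dye test. In it 55 of all 4139 probes were called and 0 of these genes. When a replicate was left out, the median of these genes ran from -0.07 (without replicate 1) to 0.01 (without replicate 3). Over the other alternatives it ran from -0.10 without pair 2 of replicate 2 to 0.0011 in the authors' value table, on that table's own scale. The run with channel A as control on every array, which is the dye fit, gave 0.06. Of 755 single-gene values under alternatives, 680 moved by less than 1 SD, 75 by more, 111 changed sign and 0 were called. Without the run with channel A as control and the authors' value table, these were 637, 47, 77 and 0 of 684. Runs that changed only the test's variance estimate or the set of probes tested left each mean unchanged, so those values could not move. Testing each probe of a gene on its own added no value, since each gene had 1 tested probe. Signal over background limits the test: 11 of these genes kept 3 replicate values when spots of corrected intensity under the background were left out.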
